A study of Rattus norvegicus with 12 samples.

Results

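Trh, the gene for the precursor of thyrotropin-releasing hormone (TRH), was measured by 1 probe of the 13375 in the array table, and so is 1 of the 9218 genes that carried a symbol. It was chosen by its difference between the groups, which was the largest rise of the table, and the genes that follow it were chosen by their levels on the same LID arrays. The difference, its rank and the likeness within LID are therefore given as descriptions, with no test.

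Messenger RNA of rat striatum was measured with 12 Illumina arrays of 1 colour, an array for each sample. The LID group held 6 samples from parkinsonian rats that had received a chronic course of levodopa (25 mg/kg of its methyl ester) together with 6.25 mg/kg of the decarboxylase inhibitor benserazide, which acts outside the brain, and had become dyskinetic. The PD control group held 6 samples from parkinsonian rats that received no levodopa, so both groups shared the parkinsonian state. RNA was taken on day 8. As no group had levodopa without dyskinesia, levodopa, benserazide and dyskinesia cannot be told apart here. The sources used here do not give how the rats were made parkinsonian, the side sampled or whether each sample was a separate animal. The p-values thus measure only how far these samples vary, which may be technical.

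TRH is a tripeptide cut from a larger precursor that holds several copies of it. It is best known from hypothalamic neurons, where it drives the release of thyroid-stimulating hormone from the pituitary and is held down by thyroid hormone, but its precursor is also made in other brain regions. The precursor is cleaved by prohormone convertases, trimmed and amidated in dense-core granules, and the released peptide acts on receptors coupled to Gq proteins until a membrane peptidase degrades it.

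The regulated region before the gene is shown because a motif in it is known from human and mouse work to bind CREB-family proteins and thyroid hormone receptors, 2 groups of factors measured below. In RefSeq's annotation of the rat assembly GRCr8, Trh spans 2527 bases on the minus strand of chromosome 4, from 126299236 to 126301762. The 250 bases before its start, chr4:126301763-126302012, minus strand, read 5′ to 3′ with the motif TGACCTCA in capitals:
Trh: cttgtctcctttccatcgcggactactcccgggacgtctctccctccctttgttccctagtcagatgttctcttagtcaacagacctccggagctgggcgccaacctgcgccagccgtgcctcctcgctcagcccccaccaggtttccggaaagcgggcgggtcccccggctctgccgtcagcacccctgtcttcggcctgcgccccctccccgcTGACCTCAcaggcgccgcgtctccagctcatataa
The motif lay 35 to 28 bases before the start, in the sense direction. Searched on both strands over the 250 bases before each start, TGACCTCA was held by 774 of 33469 promoters (2.31%) and by 104 of the 8040 that belong to measured genes (1.29%). Trh was the only one of the 60 genes chosen for naming whose promoter held it. The palindromic cAMP response element TGACGTCA was held by 531 of 33469 promoters (1.59%) and by 230 of 8040 (2.86%), among them those of Sstr2, Crem, Th, Scg2 and Vgf, and was not in the Trh window. A match of letters is a description of the sequence only.

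The tissue carried striatal markers in every sample. Drd1, the D1 dopamine receptor gene, read 1221 to 1548 intensity units in LID and 781.2 to 1226 in PD control. Adcy5, the main striatal adenylyl cyclase, read 1880 to 2375 in LID and 1251 to 2011 in PD control. The level was not even: summed over 15 markers of striatal projection neurons it was 44900 to 54120 units in LID. It was 35450, 37560 and 38730 units in PD control arrays 1, 3 and 6, and 44290 to 51090 in the other controls. Pairwise correlations between arrays, across probes, were 0.979 to 0.996. Precision is limited by the number of arrays. Among PD control arrays, 1, 3 and 6 stood apart in markers of neighbouring tissue. Array 1 had the highest summed choroid plexus and thalamic signals. Arrays 3 and 6 had the highest summed cortical signals (1829 and 1720 units, with 858.6 to 1118 units in the remaining controls). LID arrays varied in these lists too, with 814.4 to 16510 units of choroid plexus and 703.1 to 1918 of thalamic signal. None of them was left out beside those 3 controls. Across all probes 1606 passed limma's test at an adjusted p of 0.05 (12.0%), 865 higher in LID (6.47%) and 741 lower (5.54%). Without those 3 arrays 1059 probes passed, 524 higher (3.92%) and 535 lower (4.0%).

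Trh was higher in every LID array than in any PD control array. Its deposited intensity was 1915, 1453, 4628, 6241, 2375 and 1414 units in LID arrays 1 to 6. In PD control arrays 1 to 6 it was 937.7, 329.3, 212.6, 254.8, 575.9 and 152.0 units. LID arrays 3 and 4 were the high ones of their group and arrays 2 and 6 the low ones, while PD control array 1, with array 5 next, stood highest among controls. The lowest LID value was 1.51 times the highest PD control value, a gap of 0.59 log2 units that is smaller than the SD within either group. Such a separation, with all LID values above all PD control values, was found at 3.34% of all probes.

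**Figure D1:**
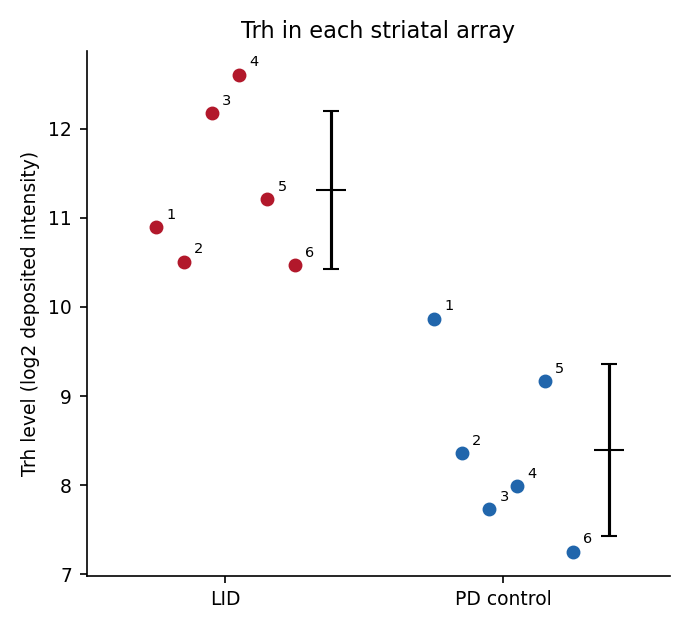
Trh in each array, as log2 of the deposited intensity, with LID on the left and PD control on the right. Numbers are replicates, and the bars give the mean and SD of 6 arrays; LID runs from 10.47 to 12.61 and PD control from 7.25 to 9.87, with no overlap.

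The mean intensity was 3004 ± 1981 in LID and 410.4 ± 297.4 in PD control (SD, n = 6 each). After normexp background correction with an offset of 50, quantile normalisation and log2, the mean level was 11.32 ± 0.89 in LID and 8.42 ± 0.95 in PD control. The log2 difference was 2.89 ± 0.46 (SE), a 7.42-fold higher level in LID. On log2 of the deposited values it was 2.92 ± 0.47, or 7.54-fold. In bulk tissue, more cells that make the transcript and more transcript per cell cannot be told apart.

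Trh had both a large difference and a large spread. Its difference ranked 1 among all 13375 probes, but its ratio of difference to SE ranked 131 among probes and 110 among named genes. Its within-group SD of 0.922 log2 units ranked 28 among all probes, against a median of 0.104. The highest LID array was 4.41 times the lowest, and the highest PD control array 6.17 times the lowest. Only 3 named genes rose by at least 2 log2 units and 20 by at least 1.

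The next 5 genes by rise each had a smaller SE than Trh. Timp1, an inhibitor of matrix metalloproteinases, was higher by 2.70 ± 0.32 (SE), with an SD of 0.90 in LID and 0.16 in PD control. Nmu, the neuromedin U precursor, was higher by 2.25 ± 0.25. Pdyn, which encodes the dynorphin precursor and is made by direct-pathway neurons, was higher by 1.90 ± 0.14. Sstr2, a somatostatin receptor, was higher by 1.82 ± 0.34 and Hcrtr1, an orexin receptor, by 1.48 ± 0.22. These 5 were named for their rank by rise, so their differences too are descriptions.

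**Figure D2:**
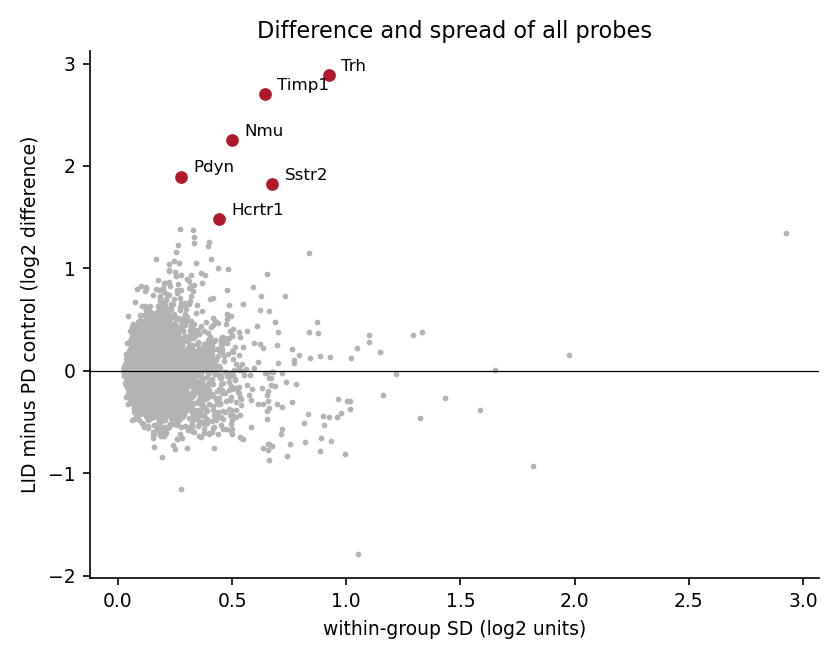
Log2 difference, LID minus PD control, against the within-group SD for all 13375 probes. Trh (2.89, SD 0.92) has the largest difference and a spread that few probes exceed, and the next 5 genes by rise are marked.

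The genes whose level followed Trh across the 6 LID arrays were sought among 967 named genes that ranged over at least 0.5 log2 units there. At a Pearson r of 0.9 or more, 29 genes followed it in the same direction (3.0% of the 967), and at -0.9 or less 15 ran opposite (1.55%). With 1 array fewer these numbers were 67 and 27 without LID array 2, 60 and 48 without LID array 6, and 24 and 10 without LID array 4; 24 and 12, 24 and 14, and 14 and 6 of the genes were shared with the full set in those 3 cases. The other 3 arrays left out in turn gave 36 to 40 and 20 to 24. The median r of all 967 was -0.018, with quartiles of -0.43 and 0.47. When each other gene was set in the place of Trh, the median number of same-direction followers was 15, with quartiles of 8 and 25, and 80.7% of genes had fewer than Trh. The points are only 6 arrays, and arrays 3 and 4 lie above the other 4 for Trh. Without LID arrays 3 and 4, over the 4 that remain, 7 of the 29 and 4 of the 15 kept an r beyond 0.9 in the same direction. At the boundary, Pkm was in at 0.902 and Tnnt1 just out, at 0.9 after rounding, and Mthfs was in at -0.904 and Nexn out at -0.891.

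Of the 10 closest same-direction followers, Sec61b, a subunit of the channel through which precursors enter the endoplasmic reticulum, ordered the 6 arrays as Trh did (r 0.988, Spearman coefficient 1.0). It read 839.3, 754.0, 1017, 1049, 854.8 and 735.7 units in LID arrays 1 to 6, and 659.4, 692.9, 580.6, 675.9, 728.7 and 593.1 units in PD control arrays 1 to 6. Every LID value of Sec61b lay above every PD control value, by a narrow margin. Its log2 difference was 0.41 ± 0.09 (SE, limma adjusted p = 0.012), and 0.31 without PD control arrays 1, 3 and 6 (adjusted p = 0.12).

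Pdyn followed Trh at r 0.967 (Spearman 0.943, or r 0.86 without LID arrays 3 and 4). It read 1606, 1394, 1962, 2496, 1611 and 1482 units in LID arrays 1 to 6, and 364.1, 556.6, 428.4, 489.9, 541.5 and 404.7 units in PD control arrays 1 to 6. The groups lay far apart, and LID arrays 3 and 4 were again the highest. Among PD control arrays Pdyn was lowest in array 1, where Trh was highest.

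Hcrtr1 followed at r 0.980 (Spearman 0.771, or r 0.803 without LID arrays 3 and 4). It read 135.4, 137.6, 309.8, 348.6, 189.6 and 137.8 units in LID arrays 1 to 6, and 67.4, 69.3, 75.7, 72.4, 53.9 and 59.6 units in PD control arrays 1 to 6. LID arrays 1, 2 and 6 were nearly level, so this likeness rests on arrays 3, 4 and 5. Timp1 followed at r 0.950 and ordered the arrays as Trh did (Spearman 1.0), with 582.8, 490.6, 1177, 1723, 892.1 and 307.2 units in LID arrays 1 to 6 and 92.2 to 127.9 units in PD control.

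The other close followers were Zfp14, a zinc finger gene (r 0.995), Nlrp3, the inflammasome sensor (0.985), and Idh1, the cytosolic isocitrate dehydrogenase (0.970). Kcnip1, a potassium channel-interacting protein (0.968), Emp3, a membrane protein (0.960), and Arhgap8 (0.954) completed the list of 10. Without LID arrays 3 and 4 these r were, in that order, 0.974, 0.998, 0.908, 0.572, 0.761 and 0.863. Zfp14, Nlrp3 and Arhgap8 were dim in LID, at 70.5 to 120.0, 51.4 to 93.4 and 52.4 to 102.8 units, where the median of all values was 132.3. Zfp14 and Kcnip1 had log2 differences of -0.06 ± 0.14 and 0.01 ± 0.12 (SE), so following Trh within LID went with no call between the groups in these genes. Nlrp3 and Arhgap8 differed by 0.35 ± 0.13 and 0.39 ± 0.13 and did not pass (limma adjusted p = 0.11 and 0.074), while Arhgap8 passed without LID array 2 (0.46, adjusted p = 0.045), on log2 of the deposited values (0.49, adjusted p = 0.046) and with an offset of 16 (0.85, adjusted p = 0.045). Emp3 was higher by 0.96 ± 0.18 (adjusted p = 0.005; 0.79 and adjusted p = 0.065 without PD control arrays 1, 3 and 6). Idh1 was higher by 0.44 ± 0.13 (adjusted p = 0.04), a call lost when any of LID arrays 1, 3, 4 or 5 or PD control arrays 2, 3, 4, 5 or 6 was left out (0.36 to 0.45).

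Further down the 29 stood Th, the rate-limiting enzyme of dopamine synthesis (r 0.946), and Pcsk2, a prohormone convertase (0.924). Bdnf, a neurotrophin (0.930), and Htr1b, a serotonin receptor (0.925), are named here after their values were seen. Htr1b was higher in LID by 1.04 ± 0.12 log2 units (limma adjusted p = 0.00021) and Th by 0.78 ± 0.17 (adjusted p = 0.009), while Bdnf differed by -0.13 ± 0.20 and did not pass. Th read 94.7, 71.1, 153.4, 141.8, 111.9 and 69.9 units in LID arrays 1 to 6, and 53.3 to 62.0 units in PD control. It was dim in both groups, highest in LID arrays 3 and 4, and its call was lost without PD control arrays 1, 3 and 6 (0.79, adjusted p = 0.059).

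**Figure D3:**
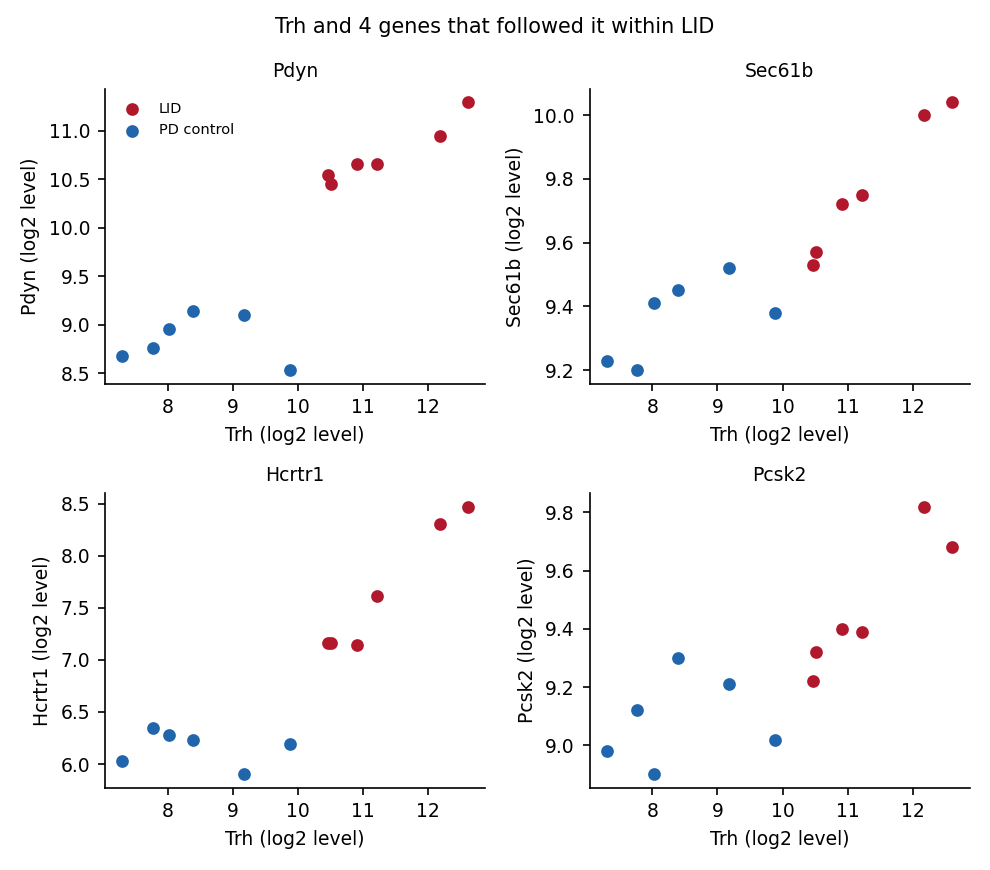
Log2 levels of Pdyn, Sec61b, Hcrtr1 and Pcsk2 against Trh, 1 point per array, LID in red and PD control in blue. Within LID the 4 genes follow Trh at r of 0.967, 0.988, 0.980 and 0.924, and within PD control at -0.07, 0.63, -0.22 and 0.22.

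Genes that ran opposite to Trh were led by Ndufa10l1 (r -0.982), named for its likeness to a subunit of respiratory complex I, Cxadrl1 (-0.973) and Pnma2 (-0.972). Txnrd1, the cytosolic thioredoxin reductase (-0.957), and Ceacam4 (-0.947) came next. Without LID arrays 3 and 4, r was -0.68 for Cxadrl1 and -0.378 for Txnrd1. It was -0.916 for Ndufa10l1, -0.925 for Pnma2 and -0.945 for Ceacam4. Cxadrl1 and Ceacam4 were dim in LID, at 65.8 to 107.8 and 58.4 to 135.1 units, where the median of all values was 132.3. Pnma2 read 139.7, 161.4, 124.3, 110.3, 137.3 and 154.4 units in LID arrays 1 to 6, and 206.7, 204.2, 291.1, 254.6, 152.8 and 239.1 units in PD control arrays 1 to 6. It fell by 0.67 on the log2 scale (limma adjusted p = 0.0061), with 1 PD control array inside the LID range, and by 0.53 without PD control arrays 1, 3 and 6 (adjusted p = 0.056). The other 4 did not pass between groups.

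Followers of Trh were more often higher in LID than the genes they were drawn from. Of the 29 same-direction followers 15 were called higher (51.7%) and 0 lower, and of the 15 opposite ones 1 was called higher and 3 lower (20.0%), where 13.8% of the 967 genes were called higher and 3.52% lower. Without PD control arrays 1, 3 and 6, 7 of the 29 were called higher, (24.1%), where 78 of the 967 were (8.07%), and of the 15 opposite ones 0 were called higher and 2 lower (13.3%, where 2.48% of the 967 were lower). Their median log2 difference was 0.39 for the same direction and -0.22 for the opposite, against 0.036 over the 967. The same held over the whole range of r: the 133 genes called higher had a median r with Trh of 0.56 and 83.5% of them were positive, the 34 called lower had a median of -0.63 with 23.5% positive, and the 800 others had a median of -0.075 with 44.8% positive. The 967 genes were picked by their range within LID alone, and 13.8% of them were called higher where 6.47% of all probes were. The same LID arrays set both r and the LID mean, and Trh was chosen for its rise. Part of these shares may thus be set by how the genes were chosen. Genes also share the 6 arrays and are not independent of each other, so these shares are a description.

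**Figure D4:**
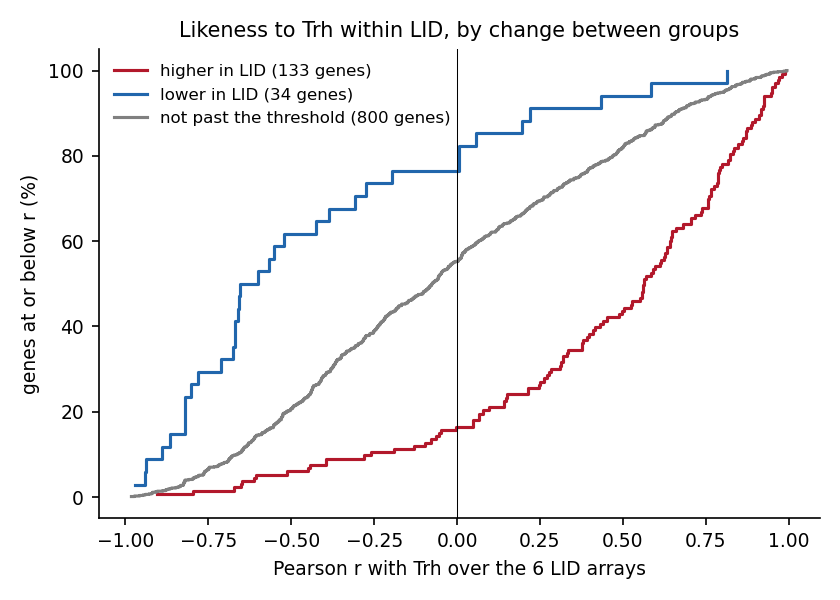
Cumulative percentage of the 967 genes by their Pearson r with Trh over the 6 LID arrays, for 133 genes called higher in LID, 34 called lower and 800 not past the threshold. The median r is 0.56, -0.63 and -0.075 in that order.

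The PD control arrays played no part in choosing the followers. There 16 of the 29 same-direction followers had a positive r with Trh (median 0.13) and 5 of the 15 opposite ones a negative r (median 0.31), against a median of 0.09 for the 967 genes. Within PD control 25 of 1631 genes with the range reached an r of 0.9 (1.53%) and 18 reached -0.9 (1.1%). None of the 29 was among the same-direction ones, and 1 of the 15, Cxadrl1, was among the opposite ones.

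Of the 15 closest followers tested over the 6 PD control arrays, 0 passed after adjustment over the 15 by an exact two-sided permutation test of r, and 2 did so unadjusted. For a Spearman coefficient without ties, the smallest exact p that 720 pairings can give is 0.0028. Cxadrl1 had r -0.967 (exact p = 0.0042, adjusted 0.0625; Spearman -0.943, exact p = 0.017, adjusted 0.125). It was dim, at 65.8 to 110.6 units over both groups, where the median of all values was 132.3. Timp1 had r 0.871 (exact p = 0.028, adjusted 0.208; Spearman 0.943, exact p = 0.017, adjusted 0.125). Pdyn, at r -0.072 (exact p = 0.89; Spearman 0.086, exact p = 0.92), and Hcrtr1, at r -0.218 (exact p = 0.68; Spearman -0.314, exact p = 0.56), did not pass. Whether r itself differed between the groups was not tested.

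The receiving side of the TRH system showed no call. Of 6 measured genes of reception and breakdown 0 passed, where 12.0% of all probes did, a share at which so short a list can hold 0 calls. Also, 0 had an unadjusted p under 0.05 (median log2 difference 0.021, against -0.0013 over all genes). Trhr, the TRH receptor, read 56.8 to 67.8 units in LID and 56.4 to 66.2 in PD control, near the bottom of the range of the table, whose lowest value was 36.5. Trhde, the membrane peptidase that degrades TRH, had probes that differed by -0.05 ± 0.08 and -0.10 ± 0.07 (SE, adjusted p = 0.76 and 0.4), and its brighter probe read 46.0 to 57.4 units in LID and 49.1 to 67.4 in PD control. At such dim signals a change would be compressed and could be missed. Prep (0.00 ± 0.11), a prolyl peptidase, Pgpep1 (0.04 ± 0.08), which removes the pyroglutamate of TRH, Dpp4 (0.03 ± 0.06) and Anpep (0.01 ± 0.05), both peptidases of the cell surface, did not pass either. Trhr2, the second receptor of rodents, had no named probe here.

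Of 8 measured genes of precursor processing, 1 rose and 0 fell, so the single call makes 12.5% of a short list, where 6.47% of all probes were higher. Pcsk2, the convertase that cuts precursors in granules, read 671.3, 632.5, 898.9, 814.8, 665.1 and 592.4 units in LID arrays 1 to 6, and 513.3, 624.1, 551.5, 473.2, 587.2 and 499.2 units in PD control arrays 1 to 6. The 2 groups overlapped at LID array 6, and the high LID arrays were again 3 and 4. Its log2 difference was 0.38 ± 0.10 (SE, limma adjusted p = 0.025). The call was lost without LID array 4 (0.34), PD control array 4 (0.35) or PD control array 6 (0.36), at adjusted p of 0.062, 0.056 and 0.052, and without PD control arrays 1, 3 and 6 (0.33, adjusted p = 0.16). Pam, which amidates the end of TRH, differed by 0.22 ± 0.08 (adjusted p = 0.099), Qpct, which forms its pyroglutamate, by 0.04 ± 0.10, and Cpd, a carboxypeptidase, by -0.20 ± 0.07 (adjusted p = 0.08). Pcsk1n (-0.11 ± 0.06) and Scg5 (0.03 ± 0.05), which bind the convertases, and Pcsk6 (-0.17 ± 0.10) and Pcsk7 (0.01 ± 0.07), related convertases, did not pass.

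Of 15 measured genes of dense-core granules and release 4 rose (26.7%, where 6.47% of all probes did) and 0 fell. Scg2, the granin secretogranin II, read 1146, 906.0, 1521, 1819, 1334 and 1320 units in LID arrays 1 to 6, and 554.6, 614.5, 515.1, 648.5, 526.1 and 499.8 units in PD control arrays 1 to 6. The groups did not overlap, and LID arrays 4 and 3 were the highest, as for Trh. Scg2 was higher by 1.23 ± 0.14 and Vgf, a granule precursor protein, by 0.93 ± 0.14 log2 units (limma adjusted p = 0.00021 and 0.0014). Ptprn, the granule membrane protein IA-2, was higher by 0.46 ± 0.13 (adjusted p = 0.036), a call lost when any of LID arrays 3, 4, 5 or 6 or PD control arrays 2, 4 or 6 was left out (0.41 to 0.47). Syt4, a synaptotagmin named after its value was seen, was higher by 0.22 ± 0.06 (adjusted p = 0.027), a call lost without LID array 3 (0.20), LID array 5 (0.19) or PD control array 6 (0.20). Without PD control arrays 1, 3 and 6, Scg2 and Vgf kept their calls, Ptprn (0.34) and Syt4 (0.16) did not, and Snap25 gained one, which makes 3 of 15 (20.0%, where 3.92% of all probes were higher). The list's mean standardised level per array followed Trh within LID at r 0.87, and at 0.54 without arrays 3 and 4. Within PD control its r was -0.77 (exact p = 0.065, adjusted over 20 lists 0.341; Spearman -0.89, exact p = 0.033, adjusted 0.333), and -0.41 without arrays 1 and 5.

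**Figure D5:**
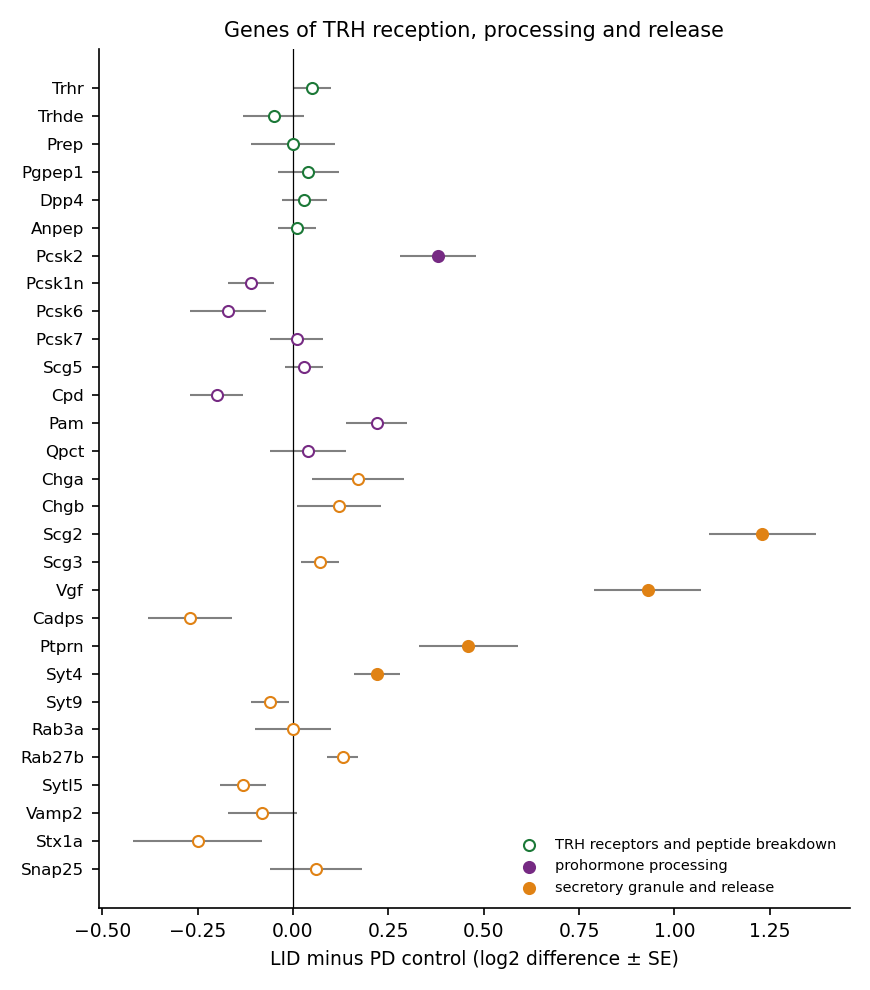
Log2 difference, LID minus PD control, with its SE, for 29 measured genes of TRH reception and breakdown (green), precursor processing (purple) and granules and release (orange). Filled points passed the adjusted threshold: Pcsk2, Scg2, Vgf, Ptprn and Syt4; none of the 6 genes of reception and breakdown did.

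Signalling below the receptor and the thyroid hormone system were examined next. Of 16 genes of Gq signalling 0 passed, where 12.0% of all probes did, with 2 at an unadjusted p under 0.05 (median 0.082). Of 19 genes of thyroid hormone transport and action 3 rose (15.8%, where 6.47% of all probes did) and 0 fell (median 0.067). Klf9, a transcription factor gene induced by thyroid hormone, was higher by 0.42 ± 0.04 (limma adjusted p = 0.00019), at 7296 to 8312 units in LID and 5378 to 6198 in PD control, with no overlap. Thrb, a thyroid hormone receptor, was higher by 0.28 ± 0.07 (adjusted p = 0.025; 0.26 and 0.051 without LID array 6). Nrgn, the thyroid hormone-responsive neurogranin gene, was higher by 0.24 ± 0.07 (adjusted p = 0.041), a call lost when any of LID arrays 1, 3, 4, 5 or 6 or PD control arrays 1, 4 or 6 was left out (0.19 to 0.26). In the fit without PD control arrays 1, 3 and 6 only Klf9 of these 3 kept its call, with Thrb at 0.25 and Nrgn at 0.20 (adjusted p = 0.13 for both), which makes 5.26% of the 19 where 3.92% of all probes were higher. Thra, the other receptor, and the deiodinase genes Dio1, Dio2 and Dio3, named after their values were seen, did not pass.

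Among 12 factors reported to act on the Trh promoter 3 rose (25.0%, where 6.47% of all probes did) and 0 fell (median 0.11). Klf10, a Krüppel-like factor, was higher by 1.05 ± 0.14 log2 units (limma adjusted p = 0.00051). It read 232.2, 226.1, 246.5, 211.3, 253.5 and 319.2 units in LID arrays 1 to 6, and 91.0, 115.9, 110.5, 111.4, 102.9 and 179.9 units in PD control arrays 1 to 6. The groups did not overlap, but Klf10 was lowest in LID array 4, where Trh was highest. Crem, a member of the CREB family whose short products repress cAMP-driven transcription, was higher by 0.79 ± 0.09 (adjusted p = 0.00029), at 483.1, 406.4, 523.3, 607.9, 492.6 and 496.2 units in LID arrays 1 to 6 and 225.9 to 320.1 in PD control. Thrb, counted above, was the third. Without PD control arrays 1, 3 and 6, 4 of the 12 were higher (33.3%, where 3.92% of all probes were). These were Klf10, Crem, Fos and Jun, the last 2 named after their values were seen. Creb1 differed by 0.08 ± 0.05 at a dim signal and did not pass.

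Over these 6 lists together, 10 of 74 measured genes were higher (13.5%, where 6.47% of all probes were) and 0 were lower, with a median log2 difference of 0.047. Trh is in none of the lists, and 22 of the 96 listed genes had no named probe here. Without PD control arrays 1, 3 and 6 the count was 9 (12.2%, where 3.92% of all probes were higher), but only 5 of the 10 were among them: Scg2, Vgf, Klf9, Klf10 and Crem. The 4 that gained a call there were Fos, Jun, Prkcd and Snap25, named after their values were seen.

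Of 35 other neuropeptide precursors 6 rose (17.1%, where 6.47% of all probes did) and 0 fell (median -0.017). Beside Nmu and Pdyn these were Tac1, the substance P precursor (1.25 ± 0.17, limma adjusted p = 0.00062), and Nts, the neurotensin precursor (0.94 ± 0.19, adjusted p = 0.0069; 0.60 and 0.056 without PD control arrays 1, 3 and 6). Tac3 (0.83 ± 0.16) and Rln3 (0.26 ± 0.07, dim in both groups), the precursors of neurokinin B and relaxin-3, were named after their values were seen, and the call of Rln3 was lost when any array but LID 1, LID 2 or PD control 6 was left out (0.21 to 0.27). In the fit without PD control arrays 1, 3 and 6 all but Nts and Rln3 kept their calls (11.4% of the 35, where 3.92% of all probes were higher). Tac1 read 3806, 3799, 5315, 6260, 5534 and 7169 units in LID arrays 1 to 6, and its highest value was in array 6, where Trh was lowest. Nmu read 1740, 1464, 2734, 4733, 2559 and 2625 units in the same arrays and shared with Trh the peak in array 4 (r 0.79).

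Markers of striatal output neurons were examined beside Trh, where 6.47% of all probes rose with the 12 arrays and 3.92% without PD control arrays 1, 3 and 6. Of 7 direct-pathway markers 4 rose (57.1%) and 0 fell: Pdyn, Tac1, Drd1 (0.57 ± 0.11, limma adjusted p = 0.0047; 0.37 and 0.051 without PD control arrays 1, 3 and 6) and Ebf1 (0.40 ± 0.10, named after its value was seen; 0.25 without those 3 arrays, adjusted p = 0.198). Of 6 indirect-pathway markers 1 rose (16.7%), Necab1 (0.31 ± 0.09, adjusted p = 0.033), a call lost when any of LID arrays 1, 3 or 4 or PD control arrays 3, 4 or 6 was left out (0.27 to 0.30). Of 15 markers of striatal projection neurons in general 6 rose (40.0%) and 0 fell, among them Ptpn5, a striatum-enriched phosphatase (0.50 ± 0.10), Gad2, a GABA-synthesising enzyme (0.49 ± 0.11), and Adcy5 (0.47 ± 0.11). Without PD control arrays 1, 3 and 6, 2 direct-pathway markers (Pdyn and Tac1; 28.6%), 0 indirect-pathway markers and 2 of the 15 (13.3%) passed, of which Gad2 had passed before, and Ptpn5 (0.41) and Adcy5 (0.26) did not. Those 3 controls held the lowest summed signal of the 15 markers, and its part in these rises was not tested. Summed direct-pathway intensity ran from 7749 to 11470 in LID and from 3972 to 5790 in PD control. The direct-pathway list's mean level followed Trh within LID at r 0.81 (0.77 without arrays 3 and 4). Within PD control its r was 0.03 (exact p = 0.94; Spearman 0.09, exact p = 0.92), and 0.86 without arrays 1 and 5. Of 24 activity-regulated genes 10 rose (41.7%) and 0 fell. Without PD control arrays 1, 3 and 6 the counts were 12 of 24 and 0, with 7 genes in both fits. Among the 10 were Inhba, an activin subunit (1.38 ± 0.17), and Nptx2, a pentraxin that binds AMPA receptors (1.01 ± 0.22; 0.99 and adjusted p = 0.064 without PD control arrays 1, 3 and 6).

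Markers of regions that neighbour the striatum, some of which make TRH, were examined beside the Trh levels. None of 10 hypothalamic, 9 thalamic and 8 choroid plexus and ependymal markers passed, where 12.0% of all probes did. Summed hypothalamic signal was 653.2 to 789.2 units in LID and 625.2 to 1072 in PD control, with its lowest LID value in array 4, where Trh was highest, and its highest PD control value in array 4, where Trh read 254.8 units. The list's mean level had r -0.59 with Trh within LID and 0.09 within PD control. Its 10 members ranged from -0.94 for Avp, the vasopressin precursor, to 0.71 for Ghrh, the growth hormone-releasing hormone precursor, within LID, both named after their values were seen. All 10 members stayed below the median of all values, 132.3 units, in every LID array. In PD control only Avp and Oxt, the oxytocin precursor, exceeded it. Sim1, Otp, Nkx2-1 and Rax had no named probe here. Such dim signals limit what the hypothalamic sum can show. Summed thalamic signal was 703.1 to 1918 units in LID and 649.7 to 3847 in PD control. Within PD control the thalamic list's mean level had r 0.7 with Trh (exact permutation p = 0.11, adjusted 0.341). The olfactory and septal list, counted below, had r 0.79 (exact p = 0.054, adjusted 0.341). The cortical list had r -0.73 (exact p = 0.096, adjusted 0.341). Within LID these r were, in that order, -0.44, -0.1 and 0.63. Without LID arrays 3 and 4 they were 0.46, 0.97 and -0.52.

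Summed choroid plexus signal was 16510, 13120, 7068, 1768, 12950 and 814.4 units in LID arrays 1 to 6, and 23890, 6996, 427.3, 6012, 6386 and 477.0 units in PD control arrays 1 to 6. In the brightest arrays it was mostly that of Ttr, the transthyretin gene. PD control array 1 held the highest choroid plexus signal, the highest thalamic signal and the highest Trh of its group, and arrays 3 and 6 the lowest choroid plexus signal and the lowest Trh. Within PD control the choroid plexus list's mean level followed Trh at r 0.88 (exact p = 0.011, adjusted over 20 lists 0.222) and Spearman 0.77 (exact p = 0.10, adjusted 0.389), and at 0.86 without arrays 1 and 5. After adjustment none of the 20 lists passed within PD control. A list that alone ordered the 6 arrays exactly as Trh did could not pass the adjusted Spearman test, so no conclusion is drawn from this. Within LID the choroid plexus r was -0.31 (Spearman -0.09), and 0.52 without arrays 3 and 4, so its sign rests on those arrays. LID array 4, highest for Trh, had the second lowest choroid plexus signal, and LID array 6, lowest for Trh, had the lowest. Without PD control array 1 the Trh difference was 3.18, and without arrays 1, 3 and 6 it was 2.78. The part of this tissue signal in the spread of Trh among PD control arrays was not tested.

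Glial and vascular lists were read against the 6.47% of all probes that rose and the 5.54% that fell. Of 8 astrocyte markers 3 rose (37.5%) and 0 fell, of 9 oligodendrocyte markers 0 rose and 2 fell (22.2%), and of 7 microglia markers 0 rose and 1 fell (14.3%). Of 6 endothelial markers 1 rose and 1 fell, and so it was for 8 cortical ones. Of 5 olfactory and septal markers 2 rose and 0 fell. Those 2 were Th and Nts, both described above, and Calb2, Zic1 and Zic2 did not pass. With PD control arrays 1, 3 and 6 left out, these counts were 2 higher for astrocytes, 3 lower for oligodendrocytes, 0 for olfactory and septal markers, and as before for the others. Gjb6, an astrocyte connexin, was higher by 0.68 ± 0.10 and Slc1a2, a glutamate transporter, by 0.34 ± 0.07 log2 units, and Mlc1 by 0.35 ± 0.09 (0.33 and adjusted p = 0.050 without LID array 4; 0.32 and 0.051 without LID array 5; 0.22 and 0.10 without PD control arrays 1, 3 and 6). Cnp and Opalin, genes of myelin, fell by 0.45 and 0.75, and Aif1, the microglial IBA1 gene, by 0.41. No other microglia marker passed, and the median log2 difference of that list was 0.046. C1qa and C1qb differed by 0.25 and 0.30 and P2ry12 by -0.23, all named after their values were seen. Egfl7, an endothelial secreted protein, was higher by 0.94 ± 0.16 and Itm2a fell by 0.56. The part of these markers in the difference of Trh was not tested.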

How the data were processed

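Total RNA of striatum was labelled with biotin and hybridised to Illumina arrays, per the labels. The deposited table holds linear intensities that the authors had already made comparable: quartiles and maximum coincide over the arrays. For software, background correction and any filter on dim probes, the step is not given in the sources used here.

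Intensities were corrected with normexp (offset 50), quantile normalised and log2 transformed (limma 3.58.1, R 4.3.3). This scale understates the change of dim genes. Each probe was tested with lmFit and eBayes (group only, all 12 arrays, two-sided) with Benjamini-Hochberg adjustment over 13375 probes and a threshold of 0.05. Fold changes come from the same log2 difference. Probe names are those of GEO's platform annotation: 9434 probes had 1 symbol and 0 had several, and a gene was represented by its brightest probe. No symbol changed when 9415 were looked up in RefSeq.

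The rule named Trh, the 10 closest same-direction and 5 closest opposite followers, the 5 genes next by rise, 8 fixed genes, every measured gene of reception and processing, and up to 3 called members of each other list. Members, lists and rules were chosen with earlier results of these data known. The titles number the arrays on from PD control to LID, so a replicate number shared here by both groups does not mark a pair. Alternatives were other scales, offsets, normalisations, arrays and filters. The steps were tested on simulated data.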

Additional observations from a re-analysis of the deposited data

Results flagged for a closer look

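Among the 60 named genes in 2 groups, 120 sets of 6 arrays were examined for an array far from the rest, and 7 held one; chance flags about 1 in 20 such sets. All 7 were PD control arrays, on the log2 scale. In array 1, Arhgap8 stood at 5.99, against 5.68 to 5.73 in the other 5 arrays, and Thrb at 8.88, against 9.04 to 9.13. In array 2, Ptpn5, the striatum-enriched phosphatase, stood at 11.31, against 10.89 to 11.0. In array 3, Pcsk6 stood at 7.45, against 7.84 to 7.97, and Cnp at 11.86, against 12.28 to 12.47. In array 6, Klf10 stood at 7.53, against 6.59 to 6.93, and Pgpep1 at 6.83, against 7.06 to 7.19. Trh had no such array in either group.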

How the results depend on the processing

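The log2 difference of Trh was 2.63 (without LID array 4) to 3.18 (without PD control array 1) when 1 array was left out, and ranked first under each alternative run except an offset of 16, where it was 3.05 and Timp1 was ahead at 3.14. The number of changed probes was 1606, against 1059 without PD control arrays 1, 3 and 6, a fit with 3 arrays fewer. Genes following Trh within LID numbered 44, against 77 with an offset of 16, 261 with no minimum range and 10 with a range of at least 1 log2 unit, and 34 to 108 when 1 LID array was left out (LID array 4 and LID array 6; 94 without LID array 2). A Spearman coefficient in place of r gave 21 same-direction and 9 opposite followers. Only 10 of the 29 and 5 of the 15 were among them, with 6 of the 10 closest same-direction genes and 4 of the 5 closest opposite ones. No result changed direction past its threshold. Over the 60 genes chosen for naming and the counts, 1188 recomputed values stayed on their side, 56 calls were lost, 3 were gained and the 6 counts given above moved by over 1.5 times. Of 99 values recomputed for 5 genes named after their values were seen (Syt4, Tac3, Rln3, Ebf1 and Htr1b), 16 calls were lost. The deviations of same-numbered arrays of the groups had a correlation of 0.48 for number 1 and of -0.29 to 0.17 for the others. Of 6 LID arrays 2 correlated best with their own number. With the replicate number as a block, Trh differed by 2.89, 1332 probes passed and 9 genes of the TRH system did. The calls of Idh1, Nrgn, Necab1 and Rln3 were lost with the block. Counts per list without PD control arrays 1, 3 and 6 were added after the data were seen, and of the 1606 probes 427 kept a higher and 389 a lower call there. Dim signals limit what Trhr and Trhde could show.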
